A study of Mus musculus with 6 samples.

Results

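Endoplasmic reticulum (ER) chaperone transcripts were examined in heart preparations that lack or keep Polrmt, the RNA polymerase of mitochondria. The set holds 9 genes chosen by symbol, with no threshold on their values, among the 39177 gene rows of the deposited count tables: Hspa5, Hsp90b1, Calr, Canx, Pdia3, P4hb, Pdia4, Pdia6 and Xbp1. All 9 symbols were found, 1 row each. The first 8 are folding proteins of the ER lumen or membrane, and Xbp1 is a transcription factor that controls their expression. The question was whether the ER branch of the unfolded protein response moves in this knockout.

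RNA of crude heart mitochondria was sequenced from 3 control mice and 3 knockout mice, all C57BL/6N and aged 3 to 4 weeks. In the controls (L/L, genotype label Polrmt +/+) exon 3 of Polrmt is flanked by loxP sites and no cre is listed. The knockouts (L/L, cre, genotype label Polrmt -/-) carry the same flanked alleles and a cre driven by the muscle creatinine kinase promoter, so that cells of the heart other than striated muscle cells keep the gene. The preparation is crude, and the nuclear transcripts in it are those that came down with the mitochondria, so their levels need not be those of the whole heart.

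Proteins that enter the secretory pathway are folded in the ER. Hspa5, also called BiP or GRP78, is the HSP70 of the lumen, and Hsp90b1, or GRP94, is its HSP90. Calnexin (Canx) and calreticulin (Calr) hold glycoproteins by their sugars while Pdia3 forms their disulfide bonds, and P4hb, Pdia4 and Pdia6 are further protein disulfide isomerases. When unfolded proteins accumulate there, the sensors Ern1, Atf6 and Eif2ak3 are released from Hspa5. Ern1 splices the Xbp1 message and Atf6 is cut to an active form, and both routes raise the chaperone genes. Eif2ak3 acts through Atf4 and Ddit3 (CHOP), which other kinases can also engage from the cytosol or the mitochondria. In cardiac muscle the ER is largely specialised as sarcoplasmic reticulum, which stores and releases calcium.

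The chaperone genes share a control sequence, the ER stress response element, which reads CCAAT, then any 9 bases, then CCACG. It is shown here because most members hold it or a near match. Promoters of 250 bases before to 50 bases after the transcription start came from RefSeq on GRCm38.p6, and all 9 members had 1. Both strands were searched. The full element stood in 5 members (Hspa5, Hsp90b1, Calr, Canx and Pdia6), against 39 of all 32851 promoters, or 0.119%. With 1 mismatch allowed among its 10 fixed bases, it stood in 7 members and in 1.5% of promoters. Pdia3 carried G19A and Pdia4 G19T, counted from the 5′ end of the element with the consensus base first. The best match of P4hb had 2 mismatches and that of Xbp1 had 3. Windows around the sites follow in the direction of each gene, with the 2 outer parts of the element in capitals. Where the site reads on the opposite strand, these parts appear as CGTGG and ATTGG, or AGTGG in Pdia4.
Hspa5, chr2:34772020-34772048, plus strand: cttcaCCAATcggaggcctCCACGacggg
Hsp90b1, chr10:86705508-86705681, minus strand: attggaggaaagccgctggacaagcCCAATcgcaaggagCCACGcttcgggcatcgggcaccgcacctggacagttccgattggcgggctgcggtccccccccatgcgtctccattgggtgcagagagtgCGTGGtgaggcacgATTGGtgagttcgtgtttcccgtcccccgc
Calr, chr8:84847050-84847118, minus strand: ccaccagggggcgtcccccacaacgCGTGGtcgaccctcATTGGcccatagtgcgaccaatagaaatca
Canx, chr11:50325775-50325843, minus strand: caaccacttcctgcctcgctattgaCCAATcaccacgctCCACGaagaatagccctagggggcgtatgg
Pdia3, chr2:121413868-121413896, plus strand: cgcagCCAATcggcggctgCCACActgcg
Pdia4, chr6:47813577-47813645, minus strand: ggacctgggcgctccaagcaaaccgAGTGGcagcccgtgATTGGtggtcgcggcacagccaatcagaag
Pdia6, chr12:17266466-17266534, plus strand: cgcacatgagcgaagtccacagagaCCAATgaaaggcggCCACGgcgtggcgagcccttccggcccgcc

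Hsp90b1 holds the element at 2 places, 1 on each strand. The Hspa5 site begins 65 bases before the start and the Canx site 145 bases before it. In GENCODE M21 the Hspa5 and Pdia3 sites fall in the 5′ UTR of a transcript that begins further upstream, so those windows are kept short. Other elements of the response were searched in the same way. The second ER stress response element, ATTGG and CCACG with 1 base between them, stood in 0 members and 0.0365% of promoters, the unfolded protein response core TGACGTGG in 0 members and 0.676%, and the C/EBP-ATF element TGATGNAAT in 0 members and 0.965%. The 2 outer parts of the ER stress response element are common on their own. CCACG stood in 7 members and in 32.8% of promoters, and CCAAT in 8 members and in 37.4%. These matches describe letters in a window and do not show binding.

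**Figure D1:**
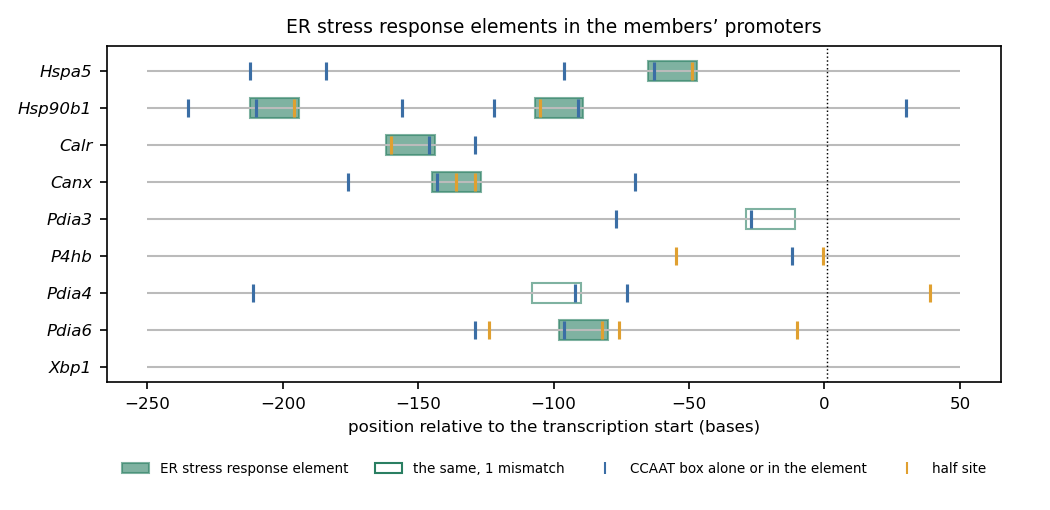
Position of the ER stress response element in the promoter of each of the 9 genes, in bases from the transcription start (dotted line). Filled boxes mark the full element (5 genes, with 2 boxes in Hsp90b1), open boxes the element with 1 mismatch (Pdia3 and Pdia4), and ticks its CCAAT and CCACG parts; the Xbp1 row is empty.

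The libraries held 2867067 to 3234729 counts in the controls and 1062030 to 1227997 in the knockouts, and 79.5 to 83.5% of control counts but 21.1 to 25.8% of knockout counts came from mitochondrial DNA. After removal of those and of 5 loci that collect ribosomal RNA, 76949 to 109351 counts were left in the controls and 126339 to 164004 in the knockouts. Levels are therefore given as counts per 1000000 (CPM) of a library size scaled by TMM, a normalisation that sets the bulk of tested genes to no change. A count of 3 then stands for 1.83 to 2.51 CPM in a control and 1.14 to 1.45 CPM in a knockout. Polrmt itself had 3, 2 and 1 counts in the controls and 2, 5 and 1 in the knockouts, which gives a scaled ratio of 0.851 (95% Poisson interval 0.259 to 2.98), and counts per gene do not separate exon 3 from the rest. Of 3363 genes tested with edgeR's quasi-likelihood test, 224 were higher and 228 lower in the knockout at a Benjamini-Hochberg adjusted p under 0.05. The higher genes made up 49.6% of these calls, against 99.5% without scaling.

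ER chaperone transcripts were neither called higher nor called lower in the knockout. Of the 8 members that passed the low-count filter, 0 were called by edgeR, where 13.4% of all tested genes were called in either direction (6.66% higher and 6.78% lower). At an unadjusted p under 0.05 edgeR gave 2 members, Calr and Pdia6, both lower, against 25.1% of all genes, and DESeq2 called 0 members. The median log2 fold change of the 8 was -0.06, beside 0.00 for all tested genes, and the members ranged from -1.05 to 0.47. Pdia4 did not pass the filter and has counts only. In simulated data of the same depth the test called 7.46% of genes changed 1.5-fold and 44.8% of those changed 2-fold, so a member not called may still have changed. In such bulk samples fewer cells of a type and less RNA per cell cannot be told apart. Summed over all 9 genes, the members made up 0.274, 0.250 and 0.230% of the remaining nuclear counts in the controls and 0.205, 0.265 and 0.275% in the knockouts. Those shares overlapped, with means of 0.251% ± 0.0219 and 0.248% ± 0.0378 (SD, n = 3 each).

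Hspa5 (ENSMUSG00000026864, chromosome 2, 34771970 to 34777547, plus strand), the gene most often read as the gauge of ER stress, had 40, 57 and 43 counts in the controls and 68, 92 and 116 in the knockouts. These are 33.5, 34.9 and 26.3 CPM against 32.9, 39.9 and 44.2 CPM. Knockout replicate 1 lay below 2 of the controls, while the other knockouts lay above all of them. The means were 31.6 ± 4.64 and 39.0 ± 5.69 CPM (SD, n = 3 each), and the log2 fold change was 0.32 ± 0.18 (SE; edgeR adjusted p = 0.247). Its 95% interval runs from 0.981-fold to 1.59-fold, so a rise of more than 1.59-fold lies outside it.

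Hsp90b1 (chromosome 10, 86690209 to 86705509, minus strand), which folds a narrow set of clients such as integrins and Toll-like receptors, stood at 31.0, 23.3 and 25.7 CPM in the controls and 20.8, 22.5 and 30.5 CPM in the knockouts. The groups overlapped, at 26.6 ± 3.96 and 24.6 ± 5.16 CPM. Its log2 fold change was -0.08 ± 0.20 (edgeR adjusted p = 0.857), with an interval of 0.723-fold to 1.24-fold. Exons of Hsp90b1 share 415 bases with 1810014B01Rik on the opposite strand, a gene that had 4 counts over all libraries.

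Calr (chromosome 8, 84841850 to 84846934, minus strand), a soluble lectin chaperone that also binds calcium, stood at 31.8, 27.6 and 25.7 CPM in the controls. In the knockouts it stood at 15.5, 23.8 and 20.2 CPM, and every knockout lay below every control. Groups that do not overlap were found for 2 of the 8 members, Calr and Pdia6, a share near the 29.3% of all tested genes. The means were 28.4 ± 3.17 and 19.9 ± 4.18 CPM, with a log2 fold change of -0.49 ± 0.20 and an unadjusted p of 0.0151 that did not pass after adjustment over all genes (edgeR adjusted p = 0.0881).

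Canx (chromosome 11, 50293961 to 50325673, minus strand), the membrane-bound partner of Calr, had 39.4, 34.9 and 29.3 CPM in the controls and 21.3, 34.3 and 35.4 CPM in the knockouts. A single library, knockout replicate 1, lay below all controls. The log2 fold change was -0.16 ± 0.18 (edgeR adjusted p = 0.661; 0.699-fold to 1.15-fold), and it was 0.03 without that library. Pdia3 (chromosome 2, 121413775 to 121438687, plus strand), the oxidoreductase that works with both lectins, had 12.6, 7.96 and 14.1 CPM against 8.24, 13.0 and 12.2 CPM. Its groups overlapped fully and its log2 fold change was -0.02 ± 0.27 (edgeR adjusted p = 0.977; 0.678-fold to 1.43-fold).

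Among the disulfide isomerases, P4hb (chromosome 11, 120560298 to 120573253, minus strand), which is also a subunit of collagen prolyl 4-hydroxylase, varied least. It stood at 20.1, 23.9 and 18.3 CPM in the controls and 18.9, 21.2 and 20.6 CPM in the knockouts. The log2 fold change was -0.04 ± 0.21 (edgeR adjusted p = 0.940; 0.730-fold to 1.30-fold). Pdia6 (chromosome 12, 17266545 to 17284770, plus strand), which works beside Hspa5 in the lumen, had the lowest fold change of the set. It had 6, 10 and 16 counts in the controls and 7, 7 and 10 in the knockouts, or 5.03, 6.12 and 9.78 CPM against 3.39, 3.03 and 3.81 CPM. Every knockout again lay below every control, at 3.41 ± 0.389 against 6.98 ± 2.49 CPM. The log2 fold change of -1.05 ± 0.39 missed the threshold (edgeR adjusted p = 0.0590), and it rests on 32 counts in all controls and 24 in all knockouts. Its 95% interval, also not adjusted over genes, ran from 0.282-fold to 0.829-fold. Pdia4 (chromosome 6, 47796141 to 47813430, minus strand), an isomerase with an additional catalytic domain, had 0, 7 and 4 counts in the controls and 2, 6 and 7 in the knockouts. Its scaled count ratio was 0.870, with a 95% Poisson interval of 0.373 to 2.09 that covers counting error only, so a change was not detectable at this depth.

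Xbp1 (chromosome 11, 5520659 to 5525893, plus strand) is itself a target of the response. It had 4, 3 and 4 counts in the controls and 7, 11 and 6 in the knockouts, or 3.35, 1.84 and 2.44 CPM against 3.39, 4.77 and 2.29 CPM. The groups overlapped, and the log2 fold change of 0.47 ± 0.47 (edgeR adjusted p = 0.636) has an interval of 0.726-fold to 2.63-fold, too wide to tell a doubling from no change. Counts per gene do not separate the spliced from the unspliced message, so Ern1 activity on Xbp1 was not analysed here. In 7 of the 9 members, knockout replicate 1 had the lowest value of the knockouts. How often this holds over all tested genes was not counted, so it is not shown to be particular to the members. The cause was not tested.

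**Figure D2:**
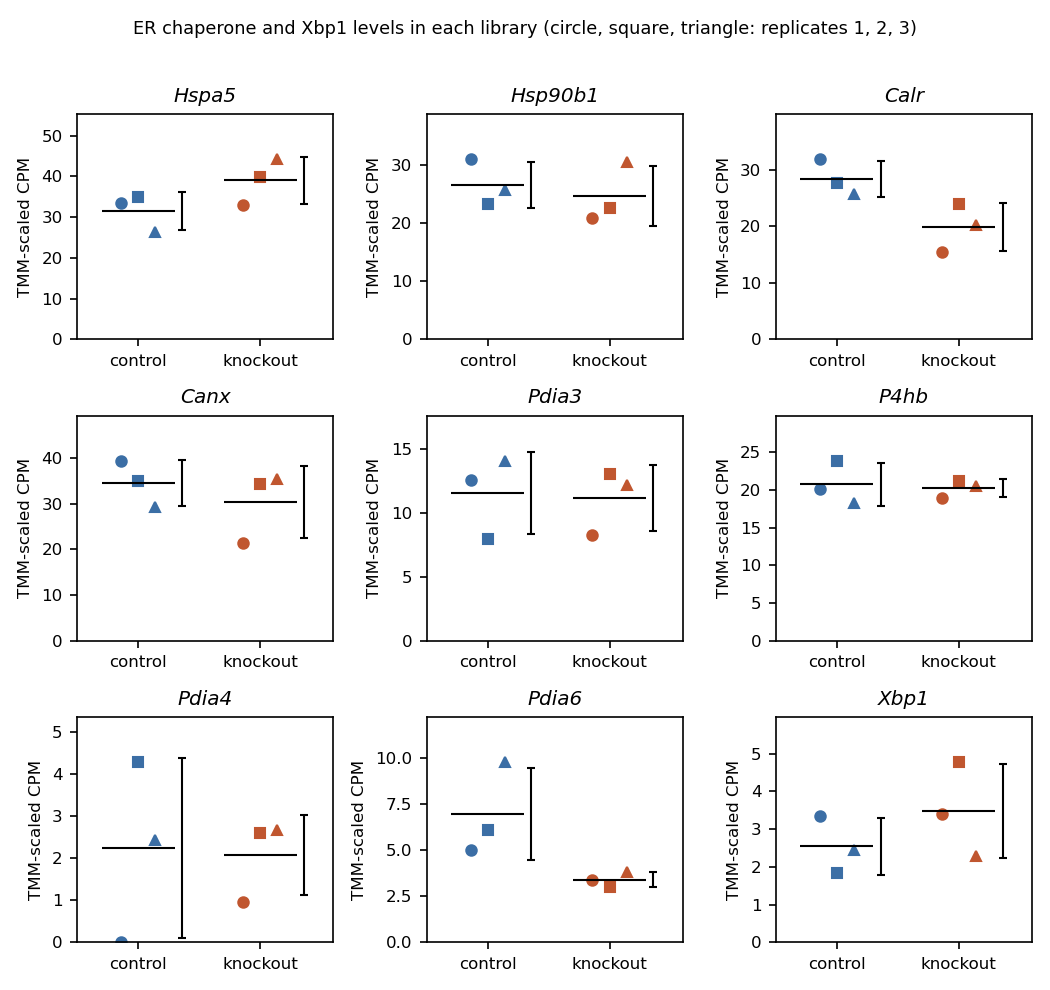
TMM-scaled CPM of each of the 9 genes in the 3 control (blue) and 3 knockout (red) libraries, with circles, squares and triangles for replicates 1, 2 and 3. Lines are means and bars the mean ± SD; the groups are apart for Calr and Pdia6 and overlap for the other genes.

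The authors' deposited table, which lists 8 of the 9 genes, gave 0 members a false discovery rate under 0.05. In the authors' deposited table the log2 fold change was 0.43 for Hspa5 (false discovery rate 0.180), -0.41 for Calr (0.292), -0.94 for Pdia6 (0.162) and 0.56 for Xbp1 (0.656). Hsp90b1, Canx, Pdia3 and P4hb stood between -0.06 and 0.10 in the authors' deposited table, and Pdia4 is not listed in it.

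Per kilobase of exon, the members fell into an abundant and a scarce group. In the controls Calr led with 9.85 ± 1.10 CPM per kilobase, above all values of Hspa5 at 7.46 ± 1.10. Hspa5, Canx (7.36 ± 1.07), P4hb (7.26 ± 0.990) and Hsp90b1 (6.61 ± 0.983) overlapped with their neighbours in this order. Pdia3 lay apart below them at 3.67 ± 1.01 CPM per kilobase, followed by Pdia6 at 1.86 ± 0.664, Pdia4 at 0.935 ± 0.896 and Xbp1 at 0.783 ± 0.235, which overlapped in turn. In the knockouts Hspa5 came first with 9.23 ± 1.34 CPM per kilobase, apart from P4hb at 7.07 ± 0.424. Calr followed P4hb at 6.89 ± 1.45 but overlapped with Hspa5, as its highest value of 8.28 lay above the lowest of Hspa5, 7.79. The order in the controls depends on the length used, and the order in the knockouts was not examined with another length. With the longest annotated transcript in place of all exons, Hsp90b1 (8.27 CPM per kilobase) stood above Canx (8.07) and P4hb (7.26), and Xbp1 (1.20) above Pdia4 (0.935), while Pdia6 stood at 3.21.

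Proportions among the members differed between the groups about as often as those of other gene pairs. Ratios of counts within a library need no scaling between libraries. Over the 28 pairs of the 8 tested members, 8 ratios had groups that did not overlap, 4 of them among the 7 pairs with Hspa5. Over 5374281 pairs of tested genes with at least 1 count in every library the share was 27.2%. The log2 ratio of Hspa5 to Calr was 0.07, 0.34 and 0.03 in the controls and 1.09, 0.74 and 1.13 in the knockouts. Hspa5 thus stood 1.79-fold higher against Calr in the knockouts. Against Pdia6, Hspa5 stood 2.44-fold higher, against Canx 1.43-fold and against P4hb 1.26-fold. With 3 against 3 libraries the 2-sided exact permutation test cannot go below p = 0.1, which these pairs reached, and the adjusted value over the 28 pairs was 0.35.

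Hspa5 and Hsp90b1 were set beside 4 relatives in other compartments, of which Hspa9, Hspa8 and Hsp90ab1 rose and Trap1 did not pass the test. Hspa9, the HSP70 of the mitochondrial matrix, rose from 49.1 ± 3.66 to 106 ± 10.4 CPM, a log2 fold change of 1.10 ± 0.15 (edgeR adjusted p = 3.77e-10). Hspa8, the constitutive HSP70 of the cytosol, rose by 0.77 ± 0.17 (edgeR adjusted p = 0.000197). The log2 ratio of Hspa5 to Hspa9 was -0.43, -0.51 and -1 in the controls and -1.78, -1.24 and -1.33 in the knockouts, so that every knockout lay below every control. This is a 1.74-fold shift of the ratio toward Hspa9 (exact permutation p = 0.1, the smallest the design allows; 0.15 adjusted over 6 ratios). Hspa5 to Hspa8 moved from -0.01 ± 0.25 to -0.47 ± 0.28 with overlap (exact permutation p = 0.2, adjusted 0.2). Among the HSP90 proteins, the cytosolic Hsp90ab1 rose by 0.63 ± 0.15 (edgeR adjusted p = 0.000479), and the log2 ratio of Hsp90b1 to it went from -1.36 ± 0.21 to -2.12 ± 0.29 without overlap (exact permutation p = 0.1, adjusted 0.15). Trap1, the HSP90 of the matrix, was not called (log2 fold change -0.54, edgeR adjusted p = 0.266), and the ratio of Hsp90b1 to Trap1 overlapped between groups, at 1.26 ± 0.39 and 1.73 ± 0.15. The 6 ratios also include Hspa9 to Hspa8 and Trap1 to Hsp90ab1, whose groups were apart. Of pairs of tested genes with at least 1 count in every library, 27.2% had groups apart. The relatives were added after their values were seen, so the ratios are not separate support for the rises of Hspa9, Hspa8 and Hsp90ab1.

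**Figure D3:**
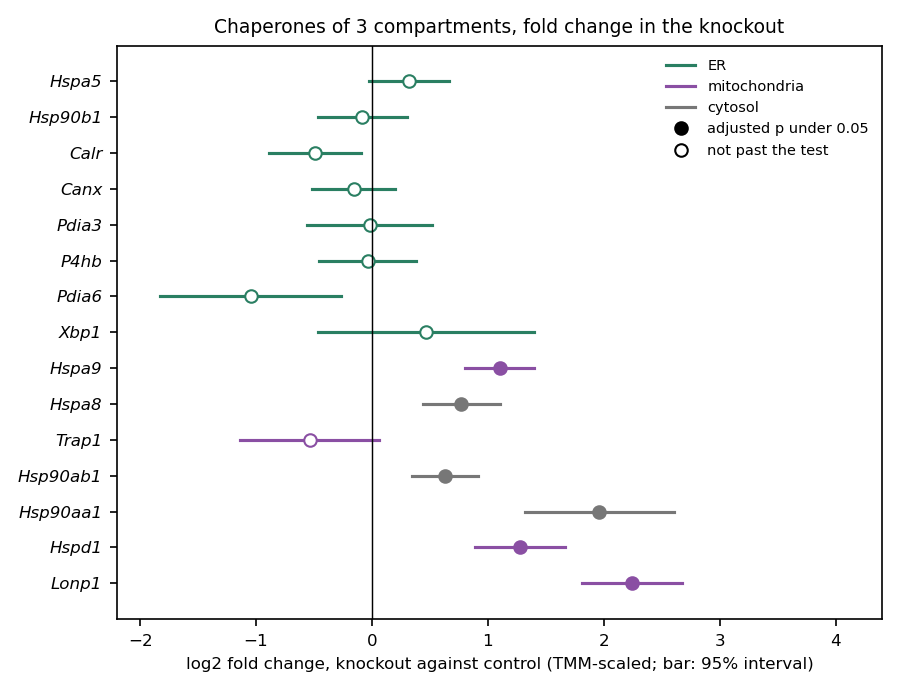
Log2 fold change of knockout against control with its 95% interval for the 8 tested ER genes (green) and for mitochondrial (purple) and cytosolic (grey) chaperones and the protease Lonp1. Filled points passed an edgeR adjusted p of 0.05; all 8 ER points are open, and of the other genes Trap1 alone is open.

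**Figure D4:**
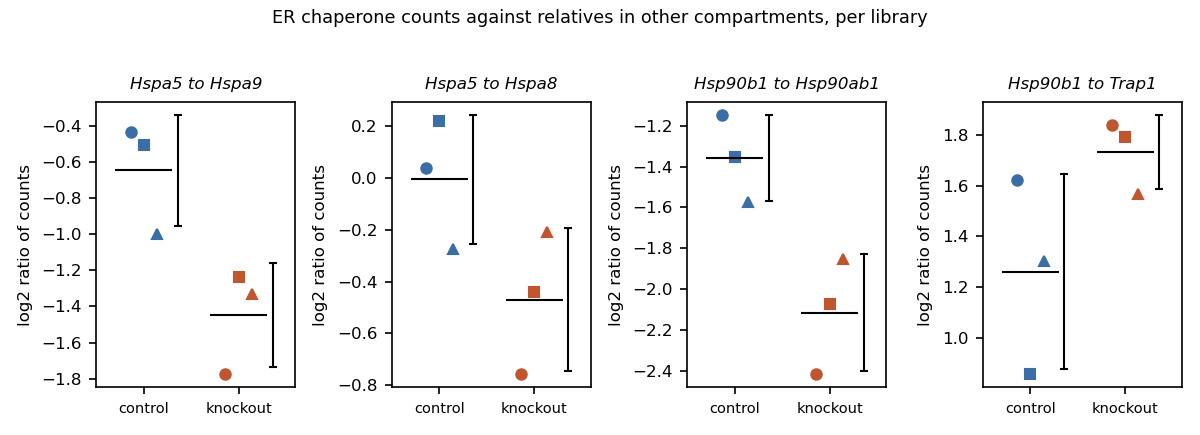
Log2 ratio of the counts of Hspa5 or Hsp90b1 to those of a relative in the matrix (Hspa9, Trap1) or cytosol (Hspa8, Hsp90ab1), per library, with circles, squares and triangles for replicates 1, 2 and 3. Lines are means and bars the mean ± SD (n = 3); the groups are apart for Hspa5 to Hspa9 and Hsp90b1 to Hsp90ab1.

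As lists, mitochondrial matrix chaperones and proteases had 4 of 8 tested genes higher and 0 lower (Lonp1, Hspa9, Hspd1 and Hspe1; list median 0.96), and cytosolic heat shock proteins 8 of 10 higher and 0 lower (median 0.83, with Hsp90aa1 at 1.96, Hspb1 at 2.28 and Cryab at 0.83). The cytosolic count was 5 without control replicate 2, knockout replicate 1 or knockout replicate 3, and 5 by DESeq2. These stand beside 0 of 8 members, and beside 6.66% of all tested genes called higher and 6.78% lower. For a list of 8 genes, 0 calls is not far from the 13.4% of all tested genes called in either direction. The lists share the same libraries and the same fit, and the difference between lists was not tested.

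The rest of the ER folding and export machinery held few calls. Of 57 other genes for ER folding, ER-associated degradation and the translocon and oligosaccharyl transferase, 25 passed the filter. Of these, 1 was called higher and 0 lower by edgeR, against 13.4% of all tested genes called in either direction, and their median log2 fold change was 0.01. At an unadjusted p under 0.05 edgeR gave the same 1 gene, against 25.1% of all tested genes, and DESeq2 called 0. It is Erp29, a thioredoxin-fold helper of secretion, with 3, 0 and 2 counts in the controls and 11, 7 and 8 in the knockouts (log2 fold change 1.67 ± 0.56, edgeR adjusted p = 0.0429). With a library left out it was tested in 3 of 6 cases and called in 0, with adjusted p from 0.0915 to 0.270, and DESeq2 gave 0.384. Hyou1, Dnajb11, Dnajc3 and Herpud1, which depend on Atf6 or Xbp1 in other settings, stood at -0.32, 0.34, -0.53 and -0.02 and were not called. Some of the most inducible targets were too scarce to test. Dnajb9 had 13 counts in all controls and 21 in all knockouts (scaled ratio 1.03, Poisson interval 0.493 to 2.24), Manf had 11 and 6 (0.348, 0.106 to 1.03), and Sdf2l1 had 0 and 4. Derl3 had 0 counts in every library.

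Of the sensors of the response, Atf6 and Ern1 had higher values that did not pass the test. Atf6 had 18, 18 and 26 counts in the controls and 49, 37 and 64 in the knockouts, or 14.0 ± 2.61 against 21.4 ± 4.64 CPM without overlap (log2 fold change 0.62 ± 0.23, edgeR adjusted p = 0.0561). Groups did not overlap for 29.3% of all tested genes. Atf6 passed in 3 of 12 alternatives, and its adjusted p ranged from 0.0228 to 0.423 over them. Ern1, the kinase and nuclease that splices Xbp1, had 3, 5 and 1 counts against 14, 13 and 8 (CPM 2.06 ± 1.29 and 5.16 ± 1.91), with a log2 fold change of 1.28 ± 0.48 (edgeR adjusted p = 0.0590), and passed in 0 of 11 alternatives. The groups of Ern1 overlapped. Mbtps1, the protease that cuts Atf6, stood at -0.27, and Eif2ak3 was too scarce to test with 8 and 18 counts. So were Atf6b with 4 and 6 counts (scaled ratio 0.957) and Mbtps2 with 2 and 6 (1.91).

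The Atf4 branch held several calls. Of 15 genes listed, 8 were tested, and 5 were higher and 0 lower, against 6.66% of all tested genes higher and 6.78% lower. The list median of 1.70 is the same when the genes with no control counts are set at a floor of 3 control counts. Atf4 itself, the transcription factor of the integrated stress response, rose from 2.47 ± 0.61 to 9.76 ± 4.67 CPM (log2 fold change 1.93 ± 0.43, edgeR adjusted p = 0.000273). Atf5, its target and relative, rose by 1.47 ± 0.34 (edgeR adjusted p = 0.000396). Asns, which makes asparagine, had 0 counts in the controls and 27, 19 and 33 in the knockouts, at least 16.8-fold higher over the group against a floor of 3 counts. Trib3, a pseudokinase, had 0 counts in the controls and 13, 7 and 14 in the knockouts. It was 7.23-fold higher by the same floor, with a lower Poisson limit of 5.57. Ddit3 was not tested, with 4 counts in all controls and 18 in all knockouts (scaled ratio 2.87, Poisson interval 0.946 to 11.7). Chac1 and Atf3, also not tested, had 0 counts in the controls and 12 and 8 in all knockouts.

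The sarcoplasmic reticulum, the part of the same membrane system that handles calcium, had lower values. Of 8 tested genes for its luminal and junctional proteins, 0 were higher and 4 lower (list median -0.55), against 6.66% of all tested genes higher and 6.78% lower. They are Ryr2, the calcium release channel (-1.30), Hrc, a calcium-binding protein of the lumen (-1.36), Atp2a2, the calcium pump (-1.01), and Casq2, the main luminal calcium store protein (-0.80). Ryr2 is also counted among the cardiomyocyte markers below. Calr, which like Casq2 binds calcium in the lumen, had the value of -0.49 given above.

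**Figure D5:**
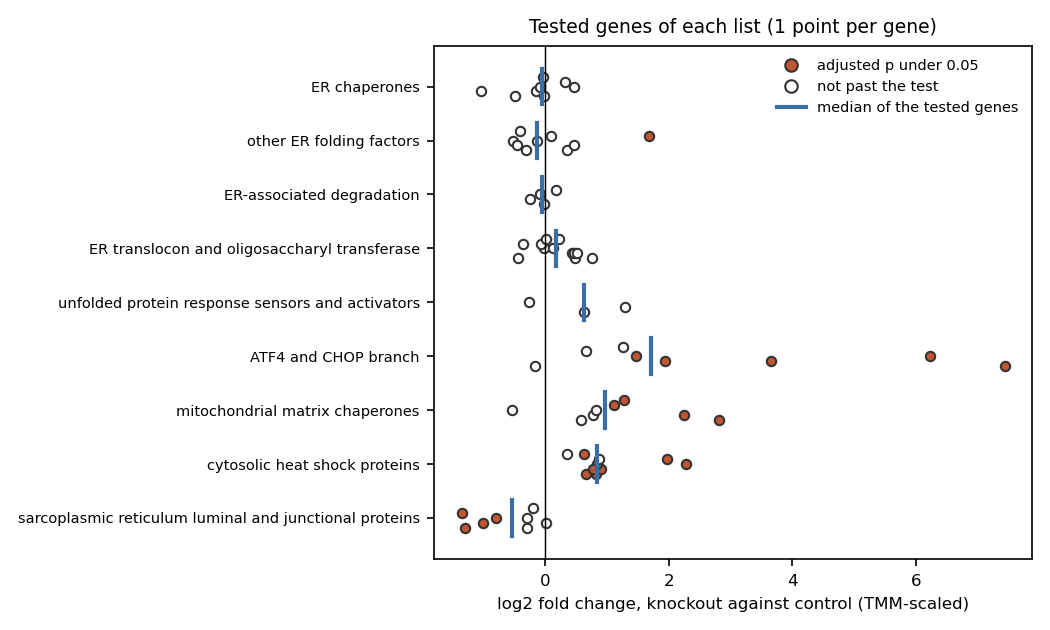
Log2 fold change of each tested gene in 9 lists, with the list median as a blue line and genes past an edgeR adjusted p of 0.05 filled. ER chaperones, degradation and translocon genes lie around 0 with no filled point, the other folding factors have 1 (Erp29), and the ATF4, matrix and cytosolic lists lie to the right; Asns and Trib3 had no control counts, so their position depends on the prior count.

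Markers of several of the heart's cell types also differed between groups. Of all tested genes, 6.78% were called lower and 6.66% higher. The 7 cardiomyocyte markers summed to 4142 to 5012 CPM in the controls and 3651 to 4096 in the knockouts, with 4 of 7 called lower. Fibroblast markers, of cells that secrete collagen and are rich in ER, summed to 692 to 739 and 578 to 655 CPM, with 2 of 7 lower. Endothelial markers went from 101 to 123 down to 75.6 to 93.4 CPM (1 of 6 lower), smooth muscle and pericyte markers from 132 to 151 down to 80.4 to 116 CPM (2 of the 5 tested lower), and macrophage markers from 30.6 to 46.1 down to 12.6 to 18.3 CPM (both tested genes lower). For B and plasma cells, which hold much of these chaperones, Cd79a, Jchain and Mzb1 had 0 counts in every library and the list summed to at most 3.35 CPM. Erythroid markers summed to 56.3 to 123 and 57.7 to 106 CPM with 0 of 5 called. Single markers had log2 fold changes above 0 in some lists, up to 0.41 for smooth muscle and pericyte, 0.29 for endothelial and 0.09 for cardiomyocyte markers. Cardiomyocyte, fibroblast, endothelial, smooth muscle and macrophage sums, like the values of Calr and Pdia6, were lower in every knockout than in every control. Of single tested genes, 29.3% had groups that did not overlap. The part of these cell types in the values of Calr and Pdia6 was not tested.

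In all, 37 genes hold the full ER stress response element in their promoter, and 7 of them were tested, of which 5 are members. The others were Acacb at 0.37 (edgeR adjusted p = 0.158) and Dnajc3 at -0.53 (edgeR adjusted p = 0.383), and 0 of the 7 were called by edgeR, where 13.4% of all tested genes were. At an unadjusted p under 0.05 edgeR gave 3 of the 7, against 25.1% of all tested genes. Of these, 2 were lower, the members Calr and Pdia6 already given above, and 1 was higher, Acacb. Groups did not overlap for 4 of the 7, against 29.3% of all tested genes, and these again include Calr and Pdia6. The genes most like Hspa5 over the 6 libraries, by Pearson's r of log2 CPM among 1590 candidates, were Cpt1a (0.97), Prpf19 (0.97), Wwp1 (0.96), Mat2a (0.95) and Atp13a3 (0.94). Of the other members, 5 were among the candidates and had lower r, with P4hb at 0.51 (rank 254), Canx at 0.38, Hsp90b1 at 0.19, Pdia3 at -0.05 and Calr at -0.21. Pdia4, Pdia6 and Xbp1 were not among the candidates, which had at least the median CPM. These correlations describe 6 points that share library depth and group. The first 5 genes were picked as the highest of 1590, so their high r does not show control shared with Hspa5.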

How the data were processed

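The deposited tables hold raw counts per gene, 1 file per library, which the authors made with HISAT 0.1.6 and featureCounts 1.3.5-p4 on GRCm38, per the submitters' processing notes. Annotation release, strand setting and the handling of multiply aligned reads: not given in the sources used here. Symbols came from GENCODE M21, matched for 37656 nuclear identifiers and 35 of mitochondrial DNA, with 1486 left unnamed. The comparison table that the authors deposited holds per gene a log2 fold change, p-value and false discovery rate, made with edgeR per the submitters' processing notes. The authors' normalised values were not used.

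Knockout was compared with control in R 4.3.3 by edgeR 4.0.16 (quasi-likelihood test, robust, no covariate, 2-sided) over all genes passing filterByExpr (minimum count 10, minimum total 15), with TMM scaling and Benjamini-Hochberg adjustment. SEs come from the F statistic. Genes under the filter have summed counts with an exact Poisson interval at 95%. The script was tested on simulated data with changes set in genes drawn from all those tested. It called 7.46% of genes changed 1.5-fold, 44.8% of those changed 2-fold and 83.3% of those changed 4-fold, and 0.158% of unchanged genes. Alternatives were DESeq2 1.42.0, other scalings and filters, a replicate block and leaving out each library. Exact permutation tests used scipy 1.17.1, and near-identical copies of the members were sought with BLAST 2.17.0 at 95% identity over 100 bases or more; apart from genes overlapping Hsp90b1, none was found. Protein sequences were not analysed here. The labels do not say that replicate numbers pair mice.

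Besides the members, named genes are Polrmt, up to 4 called genes of each list with the smallest adjusted p, genes with a group at 0, and the 5 genes most like Hspa5; single genes of the response and compartment relatives were added after their values were seen. The members and lists were chosen with earlier results of these data known.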

Additional observations from a re-analysis of the deposited data

How the results depend on the processing

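With scaling, 0 of the members tested were called in either direction under each of 12 alternatives; Pdia4 was tested in 2 of them, Pdia6 and Xbp1 in 8 each and the others in all 12. Without scaling, 8 members, 3325 of all genes higher and 18 lower were called, since the median of all genes then moved by 2.06 on the log2 scale; the members stood at 2.40 (Hspa5), 1.99 (Hsp90b1), 1.59 (Calr), 1.93 (Canx), 2.04 (Pdia3), 1.001 (Pdia6), 2.04 (P4hb) and 2.50 (Xbp1), which relative to that shift is 0.34, -0.07, -0.47, -0.14, -0.02, -1.06, -0.02 and 0.44. DESeq2 called 89 genes higher and 73 lower. No low-count filter left 117 lower, with 62.6% of calls higher, and a minimum of 1 count in every library 147. Leaving out 1 library gave 140 to 181 higher and 136 to 171 lower. Values near 0 changed sign. Hsp90b1 was 0.049 with no filter, 0.040 with 1 count in every library and -0.26 to 0.021 with a library left out. Pdia3 was 0.11, 0.10 and -0.25 to 0.18, and 0.059 with nuclear library sizes. P4hb was 0.092, 0.083, -0.13 to 0.085 and 0.043 in the same settings, and Canx was -0.27 to 0.026 with a library left out. For these results the cause was not tested. Hspa5 stayed positive with a library left out (0.19 to 0.42, adjusted p 0.198 to 0.621), and Calr (-0.65 to -0.36, 0.0707 to 0.378) and Pdia6 (-1.13 to -0.98, 0.154 to 0.185, tested in 3 of the 6) stayed negative. ATF4 branch calls went from 5 to 2 with nuclear library sizes or 1 count in every library, where fewer of its genes passed the filter. Same-numbered replicates did not deviate together (r -0.02, 0.02 and 0.02), and the replicate block gave 212 genes higher, 217 lower and 0 members. Depth limits Pdia4, Pdia6 and Xbp1 most.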

Other observations

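A few ER genes below the filter had count ratios whose 95% Poisson interval, which covers counting error only, excluded 1. They are 3 of the 32 untested genes among the other ER lists, singled out after their values were seen. How often such an interval excludes 1 over all untested genes was not counted. The 3 genes are therefore not shown to exceed the general rate. Ero1l, the oxidase that recharges disulfide isomerases, had 2, 1 and 3 counts in the controls and 14, 5 and 8 in the knockouts (scaled ratio 2.87, interval 1.16 to 8.51). Tmx1, a membrane-bound disulfide isomerase, had 7, 15 and 11 counts against 7, 3 and 9 (0.367, 0.197 to 0.665). Edem1, a lectin that sends misfolded glycoproteins to degradation, had 6, 4 and 7 counts against 5, 0 and 6 (0.413, 0.175 to 0.934). In the 6 alternatives in which Tmx1 passed a filter, its log2 fold change was -1.64 to -1.11 and it was called lower by edgeR in 4 (adjusted p 0.0358 to 0.116).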
